A study of Mus musculus with 18 samples.

Results

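The primitive endoderm genes Gata4, Gata6, Sox17, Sox7, Foxa2, Pdgfra, Dab2, Lama1 and Lamb1 were chosen by name, as 9 of the 21859 genes in the gene table, and their promoter upstream transcripts (PROMPTs) were the 9 of 32253 PROMPTs that carry the same symbols. Nascent RNA was measured by transient transcriptome sequencing (TT-seq), in which RNA made during 5 min of labelling with 4-thiouridine is purified and sequenced. The cells were E14 mouse embryonic stem (ES) cells, grown without feeders in serum and LIF with an inhibitor of GSK3 and an inhibitor of MEK. The 18 libraries form 6 groups of 3. Untagged cells, SPT16-AID-V5 clone 1 and SPT16-AID-V5 clone 2 were each given ethanol or 3-IAA for 24 h, and osTIR1 was integrated in the untagged line as well. SPT16 is a subunit of the histone chaperone FACT, and with osTIR1 present 3-IAA, an auxin, directs the AID-tagged protein to degradation, so that 6 libraries were SPT16-depleted and 12 were controls. Only 2 tagged clones stand behind the depletion, and the methods treat repeats within a clone as technical. The labels give the dose of 3-IAA as 500 nM, whereas the methods give the same figure in micromolar units.

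Only 1 value per gene or PROMPT was used, the authors' mean over libraries of counts divided by size factors, termed the pooled mean. It mixes control and SPT16-depleted libraries, and has no spread, n or test. Levels in single libraries and differences between SPT16-depleted and control cells were therefore not analysed here, and the values below describe how strongly each gene was transcribed over the experiment as a whole. In bulk RNA, fewer cells of a type and less RNA per cell cannot be told apart.

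The primitive endoderm is the extraembryonic lineage that separates from the pluripotent epiblast inside the blastocyst and later forms the visceral and parietal yolk sac endoderm. FGF signalling favours this fate, and NANOG opposes it in favour of epiblast. GATA6 acts at the head of the transcription factor cascade, followed by GATA4, SOX17 and SOX7. The receptor PDGFRA, the endocytic adaptor DAB2 and the laminin chains encoded by Lama1 and Lamb1 are further products of the lineage. In ES cell cultures genes of this lineage are used as markers of cells that leave the pluripotent state toward extraembryonic endoderm. Whether each of these genes marks only such cells was not tested here. Per kb of gene span, 7 of them lay below the median gene. Lama1 lay at percentile 82.3 of all genes, in a pooled mean that includes control libraries.

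Promoter sequences show what lies before annotated starts of the genes, and where the PROMPTs themselves start was not mapped. RefSeq entries on GRCm38 matched 4 of the members, through 7 annotated starts, and each matched the genome base for base. The other 5 members had no matching entry, so these 4 were not chosen by PROMPT level. Pdgfra and Lamb1 had PROMPTs above a pooled mean of 1, and Foxa2 and Dab2 had PROMPTs at the limit of counting. Shown are the 250 bases before 1 start of each of these 4, 5′ to 3′ on the gene's strand, with CpG dinucleotides in capitals. They are Pdgfra at chr5:75152001-75152250 (plus strand), Lamb1 at chr12:31265043-31265292 (plus strand), Foxa2 at chr2:148046970-148047219 (minus strand) and the upstream start of Dab2 at chr15:6299539-6299788 (plus strand).
Pdgfra: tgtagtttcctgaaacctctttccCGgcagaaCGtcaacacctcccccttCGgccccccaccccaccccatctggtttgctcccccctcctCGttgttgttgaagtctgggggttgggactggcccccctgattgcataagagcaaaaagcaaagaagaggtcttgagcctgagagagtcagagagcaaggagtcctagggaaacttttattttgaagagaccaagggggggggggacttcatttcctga
Lamb1: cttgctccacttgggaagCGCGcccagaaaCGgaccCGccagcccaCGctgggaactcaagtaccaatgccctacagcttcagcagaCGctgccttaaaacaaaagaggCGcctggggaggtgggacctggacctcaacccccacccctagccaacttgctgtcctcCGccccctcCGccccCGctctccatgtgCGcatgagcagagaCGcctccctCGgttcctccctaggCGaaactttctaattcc
Foxa2: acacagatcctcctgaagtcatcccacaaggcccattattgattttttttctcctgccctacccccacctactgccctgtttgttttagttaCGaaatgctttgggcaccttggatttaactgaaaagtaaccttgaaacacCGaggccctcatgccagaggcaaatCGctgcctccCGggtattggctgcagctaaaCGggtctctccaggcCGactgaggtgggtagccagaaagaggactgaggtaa
Dab2: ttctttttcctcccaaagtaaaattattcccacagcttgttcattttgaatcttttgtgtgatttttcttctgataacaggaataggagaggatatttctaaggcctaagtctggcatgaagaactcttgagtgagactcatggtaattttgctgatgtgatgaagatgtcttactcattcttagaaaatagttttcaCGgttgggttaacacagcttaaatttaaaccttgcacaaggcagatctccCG

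The shown stretches held 14 CpG dinucleotides in Lamb1, 6 in Foxa2, 4 in Pdgfra and 2 in Dab2. Over the table's 300-base window, which adds 50 bases after the start, the ratio of observed to expected CpG was 0.615 for Lamb1 and 0.548 for this start of Foxa2, both above the median of 0.384 over 32851 promoters. Pdgfra lay below that median at 0.256, and so did the upstream start of Dab2 at 0.188. A second Dab2 start, within the gene, had a ratio of 0.720, so the 2 starts of Dab2 lay on opposite sides of the median. In the 100 bases before the start they had 0.526 and 0.909, both above the median of 0.427 for that window. The letters GGGCGG, searched on both strands, occurred in 2 places in the Lamb1 window and in 1 at the Foxa2 start shown. The Foxa2 match lay within the 50 bases after the start, which are not shown. At least 1 match was present in 35.7% of all promoters. The motif AGATAA, which GATA factors can bind, occurred in 1 place in the window of the upstream Dab2 start and in 11.2% of all promoters. That Dab2 match also lay within the 50 bases after the start. Other forms of the GATA motif were not searched, such as the TGATAA within the shown Dab2 bases. TATAAA was in none of the windows of the 4 starts shown and in 13.6% of all promoters, and the SOX-type motifs ACAAAG (18.7% of all promoters) and ACAATG (12.6%) had no match in them either. A further Foxa2 start, with the bases before it at chr2:148045465-148045714 and not shown, held AGATAA and TATAAA in 1 place each and ACAAAG in 2. These matches are a description of letters and not of binding.

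The transcription factor genes lay below the median gene per kb of span, and their levels spread widely. Levels are given per kb of gene span, since TT-seq reads cover introns as well as exons. The sources do not say whether exons or whole genes were counted, so the level per kb of exon is the alternative. Over 17664 genes with a pooled mean of at least 1, the pooled mean had a Spearman correlation of 0.4415 with exon length and 0.3609 with span. The median of all 21817 genes with a length was 13.4 normalized reads per kb of span. Gata4, the zinc finger factor of extraembryonic endoderm and heart, had the highest level of the factors. Its pooled mean was 455 normalized reads, or 6.26 per kb of its 72.8 kb span (chr14:63198922-63271692, minus strand), at percentile 44.7 of all genes. Gata6, the earliest factor of the lineage, had a pooled mean of 98.96 and a level of 2.95 per kb, at percentile 39.8 (chr18:11052064-11085635, plus strand). The 3 remaining factors were lower than both GATA genes on this scale. Sox17, an HMG-box factor of primitive and definitive endoderm, had a pooled mean of 10.2 and a level of 1.58 per kb (chr1:4490931-4497354, minus strand). Foxa2, a forkhead factor of visceral endoderm, definitive endoderm and the node, had a pooled mean of 5.73 and a level of 1.40 per kb (chr2:148042877-148046969, minus strand). Sox7, the SoxF partner of Sox17 in parietal endoderm, had the lowest level of the 9 members. Its pooled mean of 2.67 gave 0.379 per kb, at percentile 27.5 (chr14:63943673-63950732, plus strand). Sox7 and Gata4 lie on the same chromosome with a gap of 672 kb between them, and the level of Gata4 per kb was the higher one.

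Few reads stand behind the low factors. If all 18 libraries entered the mean, the pooled mean of Sox7 corresponds to 48.1 normalized reads in total, that of Foxa2 to 103 and that of Sox17 to 183, whereas Gata4 drew on 8195. The order of Sox17 and Foxa2 changed with the length used: Sox17 was 1.13-fold above Foxa2 per kb of span, but per kb of exon Foxa2 was the higher one, at 2.42 against 2.13. Sox7 stayed lowest on both scales, at 0.810 per kb of exon.

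Pdgfra and Dab2, the surface receptor and the endocytic adaptor, were also below the median gene. Pdgfra, the receptor for PDGF-A and PDGF-C and a common surface marker of the lineage, had a pooled mean of 212 and a level of 4.62 per kb, at percentile 42.8 (chr5:75152292-75198215, plus strand). Its span holds the microRNA gene Mir7025 on the same strand, and the sources do not say how reads over both genes were assigned. Dab2 binds the tails of LDL receptor family members and clathrin, and is needed for the order of the endoderm layer. It had a pooled mean of 164 over the longest span of the members, 141 kb (chr15:6299788-6440712, plus strand), so that its level per kb was 1.16, at percentile 34.3. Per kb of exon, Dab2 stood at 22.3, slightly above Pdgfra at 21.2, and their order was the reverse of that per kb of span.

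The laminin genes stood above the other members per kb of span, while per kb of exon Gata4, at 117, was above Lamb1, at 99.8. Lama1, the alpha chain of laminin-111 and a main component of the first embryonic basement membranes, had a pooled mean of 18939 over 64 exon blocks and 125 kb (chr17:67697259-67822647, plus strand). Its level of 151 per kb was 11.3-fold the median gene and at percentile 82.3. Lamb1, the beta chain of the same trimer, had a pooled mean of 989.6 and a level of 15.4 per kb (chr12:31265234-31329644, plus strand), at percentile 51.1 and 1.15-fold the median gene. Lama1 was 9.83-fold above Lamb1 per kb of span and took 90.7% of the summed pooled mean of the 9 members.

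Of the 9 members, 2 lay above the median gene per kb of span (Lama1 and Lamb1) and 7 below it. Per kb of exon, Gata4 joined the laminins above the median gene, which left 6 below. Among genes with a pooled mean of at least 1, Lamb1 fell to percentile 39.6 and lay below the median gene, so that Lama1 alone stayed above it, at percentile 78.1. The highest and lowest members, Lama1 and Sox7, were 399-fold apart per kb of span and 2415-fold apart per kb of exon. Between neighbours in the order by span the steps were small below Lamb1, from 1.13-fold (Sox17 over Foxa2) to 1.86-fold (Gata6 over Sox17), until Dab2 stood 3.07-fold above Sox7. The pooled mean carries no spread over libraries, so whether neighbours differed beyond it is not known here. All 9 members had a pooled mean of at least 1, as had 80.9% of all genes, and 7 had at least 10, against 70.6% of all genes. The 2 below 10 were Foxa2 and Sox7.

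**Figure D1:**
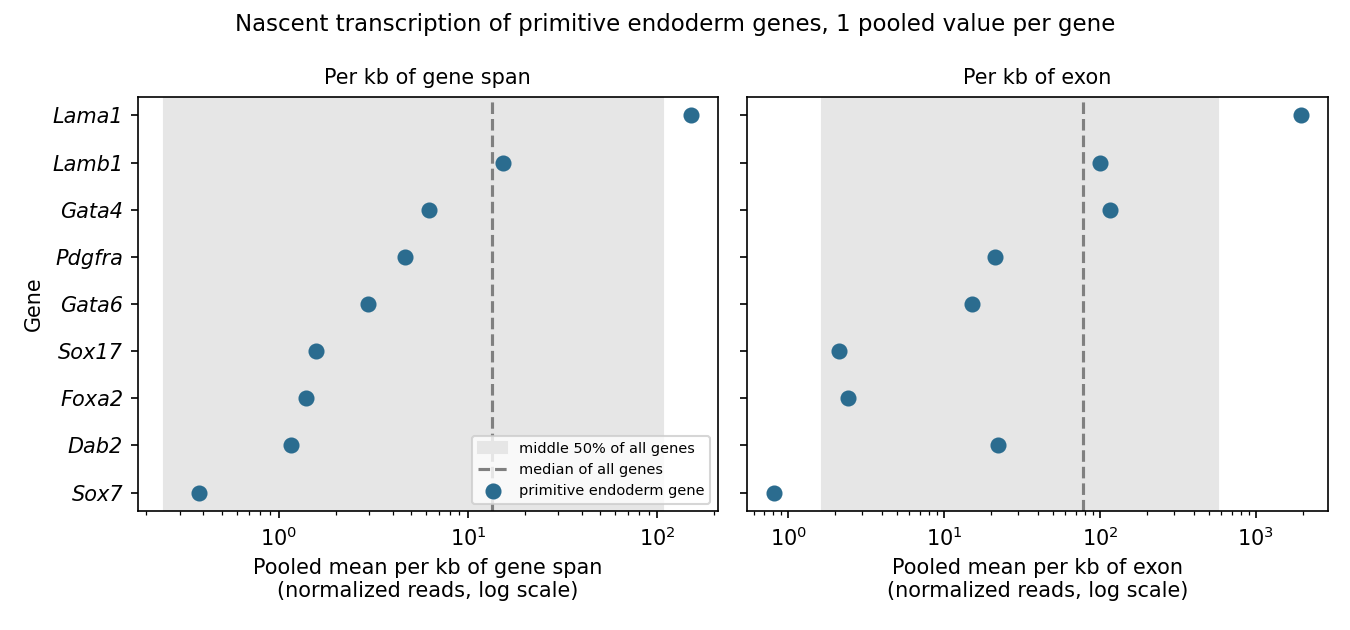
Pooled mean per kb of gene span (left) and per kb of exon (right) for the 9 primitive endoderm genes, as normalized reads on log axes, with 1 point per gene and no error because each is 1 pooled value. The grey band covers the middle 50% of all genes and the dashed line is their median, which Lama1 and Lamb1 exceeded on both scales and Gata4 per kb of exon.

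PROMPTs are short, unstable RNAs made upstream of and antisense to a gene's start. Each member had 1 PROMPT in the table, of which 3, those of Lama1, Pdgfra and Lamb1, had a pooled mean of at least 1. That was 33.3% of the members, beside 51.3% of the 14395 PROMPTs whose gene had a pooled mean of at least 1 and 33.7% of all PROMPTs. The PROMPT of Lama1 was the highest, at 6.69 normalized reads. The PROMPT of Pdgfra followed at 4.47, and that of Lamb1 stood at 1.77. Among the factors, the PROMPT of Gata6 had 0.903, that of Sox17 0.487 and that of Gata4 0.340. If all 18 libraries entered the mean, these values correspond to 16.3, 8.77 and 6.13 normalized reads in total, too few for an order between Sox17 and Gata4.

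The 3 remaining PROMPTs were at the limit of counting. The PROMPT of Sox7 had 0.0890, that of Dab2 0.0549 and that of Foxa2 0.0357 normalized reads. The Dab2 value was shared by 219 PROMPTs and the Foxa2 value by 111, each to within 1e-06. Neither was a sum of 2 recurring values, which is the pattern of 1 read in 1 library. The Sox7 value equalled such a sum. No order among these 3 is read from so few reads.

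Relative to its gene per kb of span, the PROMPT of Pdgfra stood out from those of the other members, but not per kb of exon. With the PROMPT taken as a window of 1 kb and the gene per kb of span, the ratio of PROMPT to gene was 0.967 for Pdgfra, at percentile 90.9 of all pairs, where the median ratio was 0.0468. The ratio was 0.308 for Sox17 and 0.306 for Gata6, both near percentile 80.1 of the pairs. For these genes the window also holds an annotated noncoding gene on the PROMPT's strand, Gm37587 at Sox17 and 1010001N08Rik at Gata6, so that reads of the PROMPT and of that gene cannot be told apart. Sox7 had a ratio of 0.235 on its few reads, and Lamb1 of 0.115. Gata4 at 0.0544, Dab2 at 0.0472 and Lama1 at 0.0443 lay close to the median pair on this scale, and Foxa2 had 0.0255. Per kb of exon, where the median ratio was 0.00760, Foxa2 at 0.0148 was above the median pair, while Lama1 at 0.00342, Gata4 at 0.00292 and Dab2 at 0.00246 lay below it, between percentiles 34.4 and 38.7. The ratios of Foxa2 and Dab2 rest on the few PROMPT reads named above. Per kb of exon the ratio of Sox17, at 0.229, exceeded that of Pdgfra, at 0.211.

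**Figure D2:**
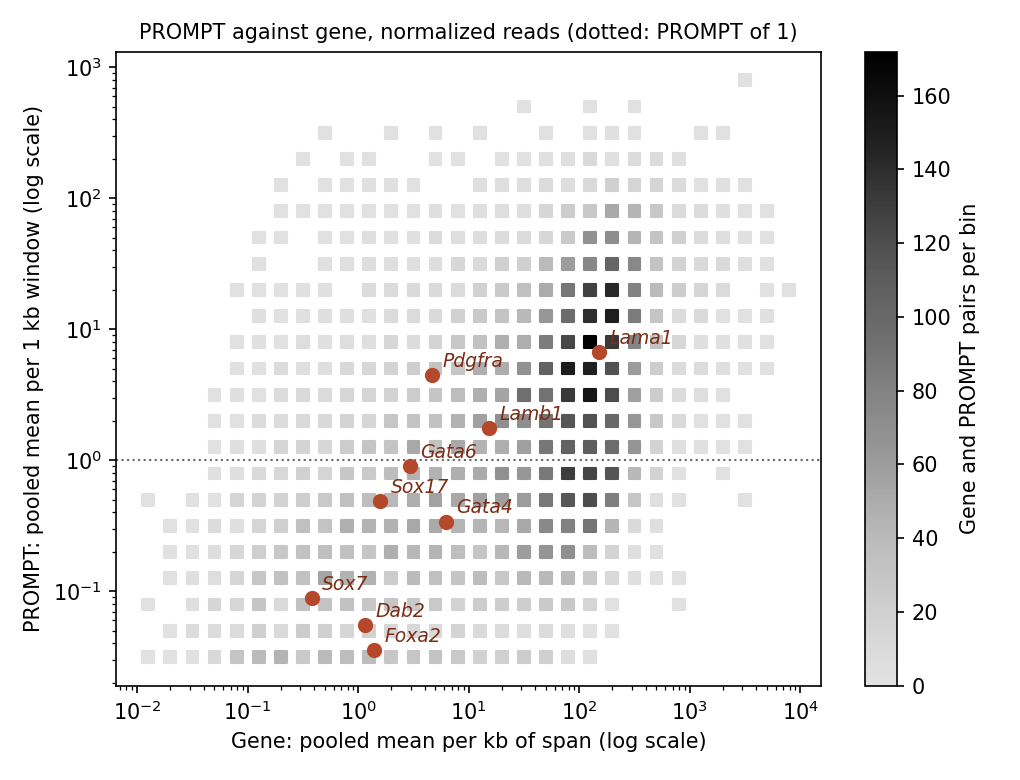
Pooled mean of the PROMPT (vertical, normalized reads per window of 1 kb) against the pooled mean per kb of span of its gene (horizontal), both on log axes; squares count the gene and PROMPT pairs in each bin and the 9 members are the labelled points. Only the PROMPTs of Lama1, Pdgfra and Lamb1 lie above the dotted line at 1. Pdgfra lies far above Gata4, whose gene level was close to it per kb of span only. Per kb of exon the Gata4 gene stood at 117, against 21.2 for Pdgfra.

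The gene families that hold the members differed in which member led. None of the 6 GATA genes exceeded the median gene per kb of span. Gata2, a blood and trophoblast factor, had 10.6 per kb and Gata4 came next with 6.26, followed by Gata3 with 5.65. Gata5 was lowest with 0.0848. Per kb of exon Gata4 was the highest of the family at 117, so that the lead of Gata2 depended on the length used. In the SoxF family the level per kb of span was 3.07 for Sox18, an endothelial factor, above both Sox17 and Sox7. In the FoxA family Foxa3 stood at 9.35 and Foxa1 at 2.26 per kb, both above Foxa2 on either scale.

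Among the 11 laminin genes, Lama1 ranked behind Lamc1 at 336 and Lama5 at 286 per kb of span. Lamc1 encodes the gamma chain that joins Lama1 and Lamb1 in laminin-111, so the 3 genes of this trimer had levels of 336, 151 and 15.4 per kb. Of the other beta chain genes, Lamb2 had 77.4 per kb, above Lamb1, and Lamb3 had 0.898, below it. Lama2 was the lowest laminin gene at 0.298. Per kb of exon Lama1, at 1956, was above Lama5, at 1243, and Lamc1 led on that scale too, at 4626.

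Ligands of Pdgfra were transcribed far above their receptor. Pdgfa had a level of 374 per kb of span and Pdgfc of 104, beside 4.62 for Pdgfra. The other receptor gene, Pdgfrb, which encodes the main receptor for PDGF-B, had 23.8 per kb. Pdgfd, at 0.268, was the only gene of the 6 in this system with a lower level than Pdgfra on either scale.

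**Figure D3:**
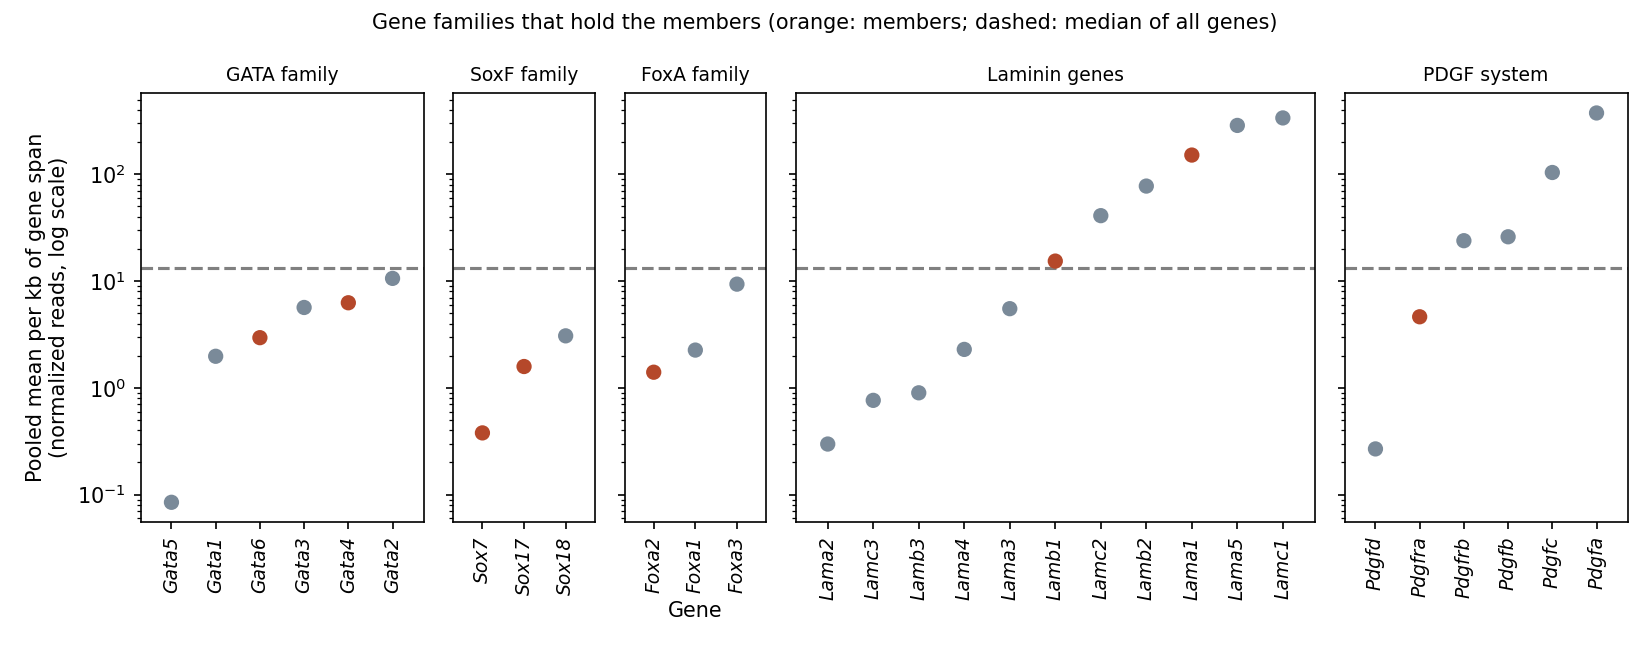
Pooled mean per kb of gene span (normalized reads, log axis) for the gene families that hold the members, with 1 point per gene, members in orange and the median of all genes dashed. Lama1 and Lamb1 are the only members above the dashed line, and every GATA, SoxF and FoxA gene lies below it.

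Genes of the signals that act on the lineage were mostly high. Of 11 genes of FGF, PDGF and BMP signalling, 9 lay above the median gene, and their median was 138 per kb. Fgf4, the ligand that ES cells secrete, was highest with 424. Bmp2 was lowest with 2.91. Fgfr2, the FGF receptor associated with primitive endoderm, had 3.06 per kb of a very long annotated span but 876 per kb of exon, against 185 and 1161 for Fgfr1, the receptor gene of epiblast and primitive endoderm.

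Of 10 other genes of the basement membrane, 8 lay above the median gene, with Nid2 (415 per kb) and Lamc1 the highest. The collagen IV genes Col4a1, with 3.25, and Col4a2, with 2.23 per kb, were below the median gene on both scales, well below Lama1. Of 8 genes of the endocytic route in which DAB2 acts, the clathrin and adaptor genes were high, as was Lrpap1, the chaperone of LDL receptor family proteins, with 439 per kb. The cargo receptors of yolk sac endoderm were low: Lrp2, the gene of megalin, had 7.30 per kb, Amn, the gene of amnionless, had 4.71 and Cubn, the gene of cubilin, had 0.372. All 3 were below the median gene, and Lrp2 and Amn were above Dab2 per kb of span.

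Most of the later endoderm genes lay below the median gene. Of 10 visceral endoderm genes, 1 exceeded the median gene, Hnf4a, a nuclear receptor of visceral endoderm and liver, with 15.4 per kb of span. Afp, the gene of alpha-fetoprotein, was lowest with 0.147. The median of this list, 2.67 per kb, was near the 2.95 of the 9 members on the span scale and 0.290-fold theirs per kb of exon. Of 6 parietal endoderm genes, Fst, which encodes the activin antagonist follistatin, had 119 per kb and Snai1, a repressor of epithelial genes, had 113. The other 4, including Pth1r at 0.688, were below the median gene.

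A list of 5 pluripotency genes, Nanog, Prdm14, Sall4, Klf5 and Esrrb, was at the other end of the scale. Whether each of them acts on the primitive endoderm fate was not tested here. All 5 exceeded the median gene, from Prdm14 with 179.5 per kb to Nanog with 2069.7 per kb of span. Their median was 188-fold that of the members. The labelled cell type was checked against its markers: all 10 ES cell genes were above the median gene, from Dppa4 with 170.2 to Sox2 with 2909.6 per kb.

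Set beside the markers of other cell types, the members were neither the highest nor the lowest. The median level per kb of span was 1434 for 10 ES cell genes, 13.2 for 8 trophectoderm genes, 4.72 for 8 primitive streak genes, 2.95 for the 9 primitive endoderm genes, 1.12 for 8 neural genes and 0.255 for 6 fibroblast genes. The primitive streak median was 1.60-fold that of the members by span and 1.02-fold by exon, so these lists are given no order. Neural and fibroblast genes changed order with the length, with medians of 1.71 and 2.28 per kb of exon. The trophectoderm median fell to 5.65 without Tead4 and rose to 20.8 without Elf5, so it moved by over 1.5-fold with 1 gene. Each of these lists ranged widely. Trophectoderm genes ran from Elf5 with 0.103 to Tead4 with 160 per kb, and neural genes from Tubb3, which was listed at 0, to Nes with 117. Lama1, at 151 per kb of span, lay below Dppa4, the lowest ES cell gene, at 170.2, but per kb of exon Lama1 was the higher one, at 1956 against 1076. With the highest member left out of the list the median of the remaining primitive endoderm genes was 2.27, and with the lowest left out it was 3.79.

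**Figure D4:**
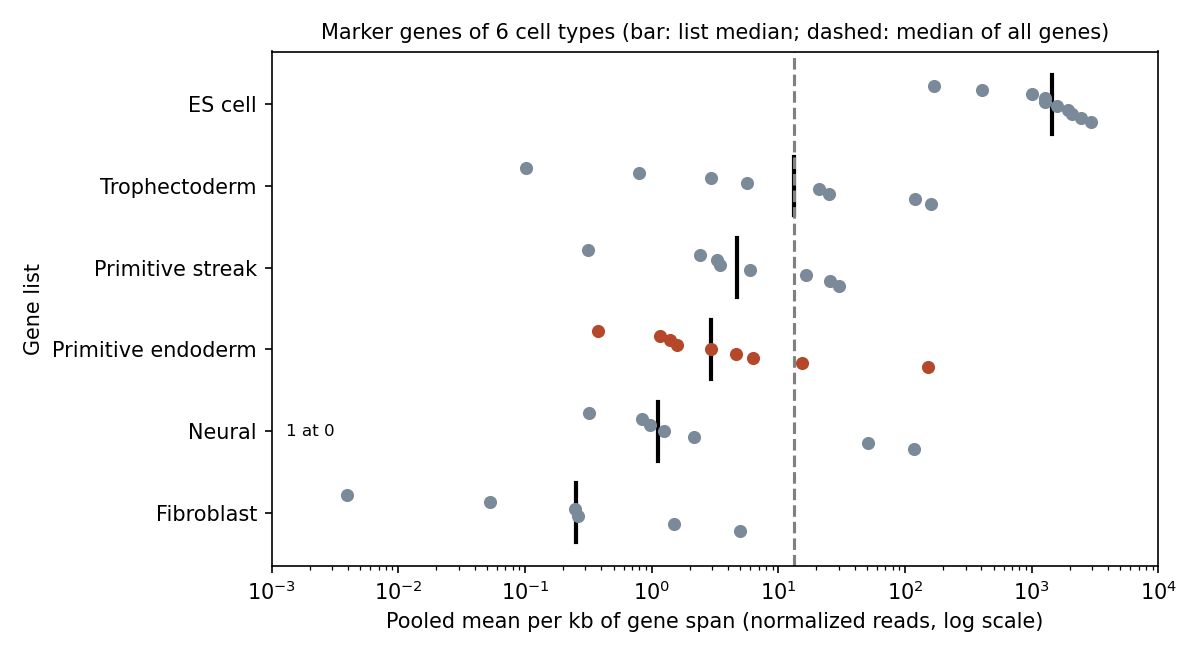
Pooled mean per kb of gene span (normalized reads, log axis) for marker genes of 6 cell types, with 1 point per gene, a bar at each list's median and the median of all genes dashed. The 9 primitive endoderm genes, in orange, run from 0.379 to 151 per kb with a median of 2.95, all below the lowest ES cell gene at 170.2 on this scale, whereas per kb of exon Lama1 exceeds it.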

How the data were processed

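Nascent RNA was measured by TT-seq in 18 libraries, grouped by their titles. According to the methods, reads were trimmed with Trim Galore, aligned uniquely to mm10 with STAR and counted by strand with featureCounts, with no filter on expression; the labels name HTSeq. Per the labels, DESeq2 and deepTools were also used. The deposited signal is the authors' mean over libraries of counts divided by DESeq2 size factors. The sources do not list the libraries in that mean or say whether exons or whole genes were counted. The other value columns hold the authors' own comparison (log2 fold change shrunken with apeglm, its standard error, Wald p-value and adjusted p-value) and were not used, nor were the tables of eRNAs and DNase-hypersensitive sites, whose regions carry no coordinates. Depth per library is unknown here, and the pooled value carries no interval.

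Each gene's pooled mean was divided by its span, or by the union of its exons as an alternative, taken from Gencode vM21 (GRCm38), an earlier release than the vM25 behind the authors' counts. Of 21859 genes, 21817 had a length. A percentile is the share of genes below a level plus the tied share divided equally. PROMPTs were paired with genes by symbol and taken as 1 kb long. The named genes were all 9 members and, for each list, the highest, the lowest and those next to them, up to 4 examples; genes outside that rule were named after their values were seen. The members and the gene lists were chosen with earlier results of these data known. One list gene's own value is not reported here. No test was run. Alternatives changed the length, the genes in the background, the list members, the PROMPT floor and the promoter window. A value counts as moved when it changed by over 1.5-fold, or by over 10 points for a percentile. Python 3.11.15, numpy 2.4.6, pandas 2.3.3, pysam 0.24.0, samtools 1.23.1 and matplotlib 3.10.9 were used, and the functions were tested on simulated data.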

Additional observations from a re-analysis of the deposited data

How the results depend on the processing

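No paired analysis was possible because single-library values were not used, and for the same reason no replicate was left out. The median level of the 9 members, 2.95 per kb of span, was 21.2 per kb of exon, and without scaling by length the median pooled mean was 164. Their median percentile, 39.8, was 40.1 by exon length. It fell to 25.7 among genes with a pooled mean of at least 1, where genes at or near 0 leave the background. Among genes with at least 10, Foxa2 and Sox7 drop out as well, and the median of the 7 remaining members was 19.5. Gata6, the middle member of the 9, stood at percentile 15.7 in that background. The median ratio of PROMPT to gene, 0.115, was 0.0177 per kb of exon, and summing PROMPT rows of a symbol left it at 0.115. The share of members with a PROMPT above the floor, 33.3% at a pooled mean of 1, was 44.4% at 0.5, 11.1% at 5 and 0.0% at 10. The CpG ratio of 0.615, the median over the 7 promoters, was 0.800 in the 100 bases before the start. Of 18 alternatives for single members' percentiles 9 moved, and of 12 for the medians of the ES cell, trophectoderm, neural and primitive streak lists 6 moved. Levels of Sox7, Foxa2 and Sox17, and the PROMPTs of Sox7, Dab2 and Foxa2, are limited by few reads.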

Other observations

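Of 6 definitive endoderm genes, a list that shares Sox17 and Foxa2 with the members, 3 exceeded the median gene per kb of span and 1 per kb of exon. Hhex, a homeobox factor of anterior endoderm, was highest with 89.99 per kb of span, and Cer1, a secreted inhibitor of Nodal, BMP and Wnt, was lowest with 0.190. The median of the list was 3.05-fold that of the 9 members per kb of span and 0.705-fold per kb of exon, so its direction relative to them depends on the length. It was 1.58 per kb of span without Hhex and 16.4 without Cer1. Of 6 fibroblast genes, none exceeded the median gene on either scale, with Thy1 the highest at 4.94 and Postn the lowest at 0.00396 per kb of span.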
